A study of Mus musculus with 2 samples.

Results

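The SOCS family comprises the feedback inhibitors of cytokine signalling, and all 8 genes of it (Socs1 to Socs7 and Cish) were read out by their GENCODE M21 names from the gene and transcript tables of both libraries, among 55536 genes in all. Polyadenylated RNA of primary regulatory T cells had been sequenced as 2 technical replicate libraries of biological replicate 1. The cells came from an adult male mouse, 9 weeks old, of the strain Foxp3GFP-DTRCD4CreERT2R26tdTomato, whose name carries a reporter with the diphtheria toxin receptor at Foxp3, a tamoxifen-inducible Cre at CD4 and tdTomato at R26. No treatment, organ or purification was given in the labels, and there was no other group, so that the comparisons were between genes, between transcripts and between the libraries. The libraries held 20891069 and 18571065 expected counts in genes, and 12980 genes had a TPM (a level scaled for transcript length and depth) of at least 1 in both, which was taken as detected. All 7 regulatory T cell markers checked, Foxp3 among them, were detected, against 10 of 27 markers of other cell types. Neutrophil markers were at 0 counts (0 of 4 detected), and the summed TPM of erythroid markers was 112 in technical replicate 1 and 140.3 in technical replicate 2. In such bulk RNA, fewer cells with a transcript and less of it per cell cannot be told apart.

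Cytokine receptors of this class carry JAK kinases, which phosphorylate STAT transcription factors, and STATs in turn switch on SOCS genes, so that the pathway limits itself. Each SOCS protein binds phosphotyrosine through an SH2 domain and carries a C-terminal SOCS box, which recruits elongins B and C and cullin 5 into a ubiquitin ligase. SOCS1 and SOCS3 in addition hold a kinase inhibitory region that blocks JAKs directly. Regulatory T cells depend on interleukin-2 and STAT5, and Cish and Socs2 are well-known STAT5 target genes.

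Promoter sequences are shown for the most abundant member, Cish, and for Socs3 and Socs1, whose scaled counts differed most between the libraries. They run from 250 bases before to 50 bases after the RefSeq start (GRCm38.p6, the build of mm10), 5′ to 3′ on the strand of the gene, with every match to TTCNNNGAA, the core of STAT binding motifs, in capitals. This motif reads the same on both strands. The RefSeq promoter table held 4 of the 8 members, and the remaining promoters were not analysed here.
Cish (chr9:107296409-107296708, plus strand): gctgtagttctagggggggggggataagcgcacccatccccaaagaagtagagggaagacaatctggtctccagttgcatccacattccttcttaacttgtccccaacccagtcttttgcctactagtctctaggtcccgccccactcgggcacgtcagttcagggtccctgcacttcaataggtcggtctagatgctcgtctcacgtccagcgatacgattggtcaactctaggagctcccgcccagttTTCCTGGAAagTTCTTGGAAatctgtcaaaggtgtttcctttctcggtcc
Socs3 (chr11:117969317-117969616, minus strand): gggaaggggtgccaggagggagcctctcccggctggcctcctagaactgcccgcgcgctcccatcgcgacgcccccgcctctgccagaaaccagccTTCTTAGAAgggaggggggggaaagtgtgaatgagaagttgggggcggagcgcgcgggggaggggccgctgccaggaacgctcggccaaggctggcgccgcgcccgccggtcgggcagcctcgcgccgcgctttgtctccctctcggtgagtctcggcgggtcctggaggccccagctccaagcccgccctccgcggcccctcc
Socs1 (chr16:10785487-10785786, minus strand): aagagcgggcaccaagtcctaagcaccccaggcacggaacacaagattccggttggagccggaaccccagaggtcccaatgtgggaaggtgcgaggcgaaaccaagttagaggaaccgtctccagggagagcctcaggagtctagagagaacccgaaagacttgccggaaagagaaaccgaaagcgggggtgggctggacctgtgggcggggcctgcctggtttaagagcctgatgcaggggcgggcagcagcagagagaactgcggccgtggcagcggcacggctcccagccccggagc

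The Cish window held 2 matches, TTCCTGGAA at chr9:107296659-107296667 and TTCTTGGAA at chr9:107296670-107296678, which begin at base 1 and base 12 counted from the RefSeq start. Socs3 had 1 match, TTCTTAGAA at chr11:117969512-117969520. Socs1 and Socs4 had 0 in these windows. Of 32851 promoter windows of this length, 8.30% held at least 1 match and 0.457% held 2 or more. The Cish matches lie in the first exon of the transcript Cish-201 and just upstream of the annotated start of Cish-204.

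Cish led the family, with a mean TPM 2.27 times that of Socs2, and Socs7 stood at the chosen threshold of 1 TPM. All 8 genes were detected, and the 3 most abundant of them, Cish, Socs2 and Socs3, made up 91.7% and 89.8% of the summed TPM of the family in technical replicates 1 and 2. The sums were 338.4 and 455.3 TPM, with a mean of 397 ± 82.6 (SD, n = 2 technical libraries). Every member had a higher TPM in technical replicate 2, by between 1.04 and 2.56 times. The share of all genes with a higher TPM there was not computed. By scaled counts, compared below, 4 of 8 were called higher. With 2 libraries no order of levels can be tested, so neighbours were called apart only where their values did not overlap.

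**Figure D1:**
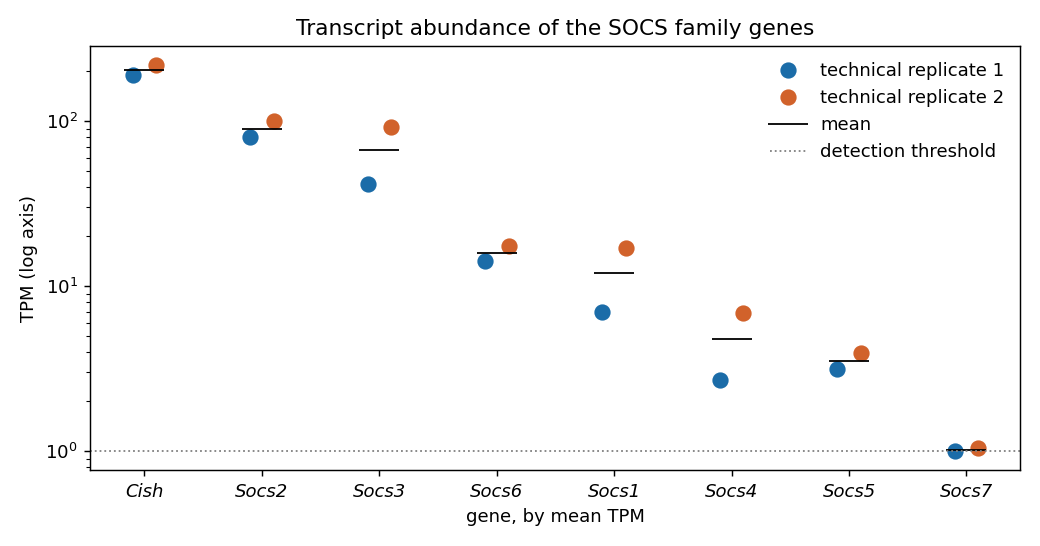
TPM on a log axis of the 8 SOCS family genes in technical replicate 1 (blue) and technical replicate 2 (orange), with the mean as a bar and the detection threshold of 1 TPM dotted. Cish lies at 189.6 and 217.7 TPM and Socs7 at 1.00 and 1.04 TPM, and the points of Socs1, Socs3 and Socs4 lie farthest apart.

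Cish (cytokine-inducible SH2-containing protein, ENSMUSG00000032578.7, chromosome 9, 107296026 to 107302784, plus strand) is induced by STAT5 and restrains interleukin-2 and T cell receptor signals. Its level was 189.6 and 217.7 TPM, from 7438.57 and 6507.88 expected counts. Its mean of 203.7 ± 19.9 TPM (SD, n = 2) ranked 842 among all genes and exceeded 93.5% of detected genes. Its lower value was above the higher value of Socs2, so Cish stood apart from the rest of the family.

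Socs2 (ENSMUSG00000020027.18, chromosome 10, 95385362 to 95417180, minus strand), best known as a brake on growth hormone signalling, had 79.6 and 99.5 TPM, with a mean of 89.5 ± 14.1 TPM from 1376.76 and 1618.91 counts. Socs3 (ENSMUSG00000053113.3, chromosome 11, 117966079 to 117970047, minus strand), which binds receptors of the gp130 family and the JAK beside them, had 41.3 and 91.7 TPM, with a mean of 66.5 ± 35.7 TPM from 1385 and 2653 counts. Socs2 was above Socs3 in each library, but their ranges over the libraries overlapped. In technical replicate 2 the deposited credibility bounds of the posterior mean TPM overlapped as well, at 84.1 to 99.0 for Socs2 and 78.0 to 86.4 for Socs3.

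Socs6 (ENSMUSG00000056153.15, chromosome 18, 88665224 to 88927481, minus strand), an inhibitor of receptor tyrosine kinases such as KIT, had 14.1 and 17.5 TPM, with a mean of 15.8 ± 2.41 TPM from 627 and 573.12 counts. Its higher value lay below the lower value of Socs3. Socs1 (ENSMUSG00000038037.5, chromosome 16, 10782240 to 10785536, minus strand), the main brake on interferon-gamma signalling and on several common gamma chain cytokines, had 6.98 and 16.9 TPM, with a mean of 12.0 ± 7.04 TPM from 274 and 565 counts. The ranges of Socs6 and Socs1 overlapped. By mean TPM, Socs6 exceeded 46.2% of detected genes and Socs1 exceeded 40.5%.

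The order closed with 3 of the members that have a long N-terminal region. Socs4 (ENSMUSG00000048379.9, chromosome 14, 47276931 to 47296102, plus strand), which with Socs5 is linked to epidermal growth factor receptor turnover, had 2.68 and 6.87 TPM from 199 and 255 counts, and a mean of 4.78 ± 2.96 TPM. Socs5 (ENSMUSG00000037104.9, chromosome 17, 87107679 to 87137839, plus strand) had 3.14 and 3.90 TPM from 196 and 174 counts, and a mean of 3.52 ± 0.537 TPM. These neighbours overlapped, and their order was reversed between the libraries, with Socs5 above Socs4 in technical replicate 1. Socs7 (ENSMUSG00000038485.5, chromosome 11, 97362551 to 97398542, plus strand), which has been tied to insulin receptor substrates, had 1.00 and 1.04 TPM from 81 and 87 counts. Over the members, 3 counts corresponded to between 0.0370 and 0.173 TPM in technical replicate 1, which is below the TPM of every member.

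Counting for Cish was complicated by neighbours on the other strand. The antisense gene Gm17041 (chromosome 9, 107300380 to 107301838) had 70.4 and 75.9 TPM from 427.43 and 390.76 counts, and all 479 of its exon bases lie in exons of Cish. The pseudogene Gm17040, also on the other strand, shares 261 exon bases with Cish and had 0.340 and 0.880 TPM. Nothing in the sources used here says whether the counting used strand, so reads of Cish and Gm17041 may not be told apart and both values are uncertain. No other member shared an exon base with another annotated gene.

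Cish was also the member with the largest amount of RNA assigned to transcripts that are not protein coding. Cish-201 and Cish-204, its complete coding transcripts, stood at 79.6 and 44.8 TPM in the first library and at 55.8 and 65.0 TPM in the second. Cish-202, a processed transcript of 4697 bases of which 2772 lie in introns of Cish-201, took 33.1% and 35.8% of the counts of the gene. Its level was 37.5 and 41.9 TPM. Cish-205, a processed transcript of 371 bases, went from 27.7 TPM on 126.07 counts to 55.0 TPM on 212.13 counts. The complete coding transcripts together had 124 and 121 TPM, with a mean of 123 ± 2.52 TPM. Their counts were 4848.73 and 3964, and their share of the gene TPM was 65.6% and 55.5%.

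**Figure D2:**
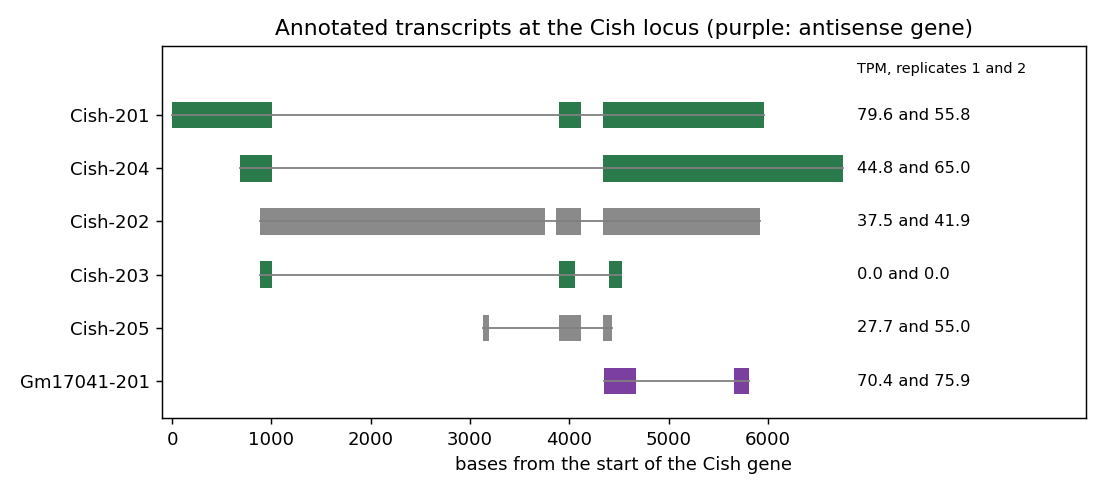
Exons (boxes) and introns (lines) of the annotated Cish transcripts and of the antisense gene Gm17041, by distance in bases from the start of the Cish gene, with coding transcripts in green, other Cish transcripts in grey and Gm17041 in purple. The TPM in technical replicates 1 and 2 stands beside each, and both Gm17041 exons lie within the span of the last exon of Cish-201.

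Among the other members, Socs1 and Socs3 were almost wholly coding. Both annotated Socs1 transcripts are complete coding models, and they split the gene 64.4% to 35.6% and then 56.9% to 43.1% in the libraries. Socs3-201 took 94.3% and 96.1% of Socs3. Socs2 has 14 annotated transcripts, of which 8 were above 0 TPM in both libraries, and its complete coding models took 61.5% and 78.4% of the gene TPM. Socs2-201 led in technical replicate 1 at 32.9%, and Socs2-202 led in technical replicate 2 at 41.0%. Socs6 was divided mainly between the coding transcripts Socs6-203, at 41.3% and 40.8%, and Socs6-202, at 36.95% and 27.8%.

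Socs4 had the largest shift between transcripts in the family. Its complete coding transcript Socs4-201, 6877 bases long, had 2.02 and 2.83 TPM from 194.44 and 231.36 counts. Socs4-202, an incomplete coding model of 538 bases, had 0.660 TPM from 4.56 counts in technical replicate 1 and 4.04 TPM from 23.64 counts in technical replicate 2. The share of Socs4-201 was thus 75.3% and 41.2%, and the gene TPM was 2.56 times as high in technical replicate 2 while the scaled counts were 1.51 times as high. In Socs5 the share of Socs5-201 was 93.1% and 72.0%, and in Socs7 the share of Socs7-201 was 81.5% and 100%, where the other transcript, Socs7-202, rested on 1.19 counts and then none. By counts the shifts were smaller: Socs4-201 held 97.7% and 90.7% of the gene counts, and Socs5-201 held 96.9% and 88.7%. The difference in share of the leading transcript had a median size of 11.9 percentage points over the 8 members, against 4.86 over 9724 genes with at least 100 counts and more than 1 transcript. Those genes were not matched to the members for depth or transcript length.

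**Figure D3:**
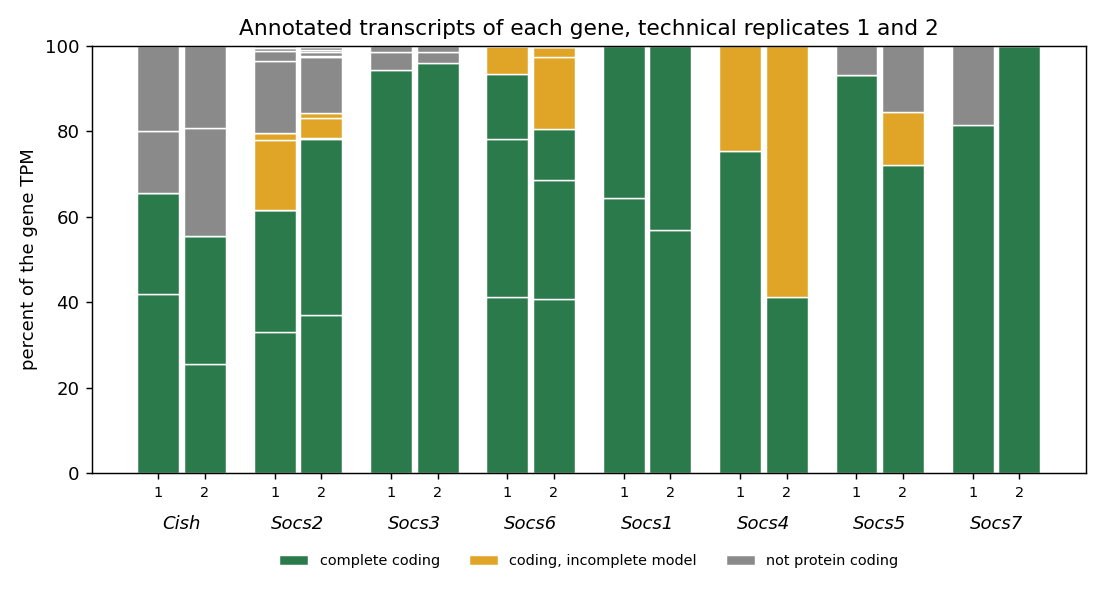
Percent of the TPM of each gene taken by its annotated transcripts in technical replicates 1 and 2 (paired bars), with complete coding models in green, coding models annotated as incomplete in yellow and transcripts that are not protein coding in grey. Socs1 is green throughout, and the green share of Socs4 goes from 75.3% to 41.2%.

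The members share gene features that the choice by name did not use. In 5 of 8 the complete coding transcript with the highest mean TPM has its whole coding region in 1 exon, as in 5.51% of 10274 detected genes with a 3′ UTR. These 5 are Socs1, Socs3, Socs4, Socs5 and Socs6. The AU-rich pentamer ATTTA, found in unstable mRNAs, was searched on the sense strand of the 3′ UTR of these models and was present in 6 of 8 members against 63.3% of those genes, which is near the background. Socs4 had 17 copies in a 3′ UTR of 5182 bases, a higher copy number than in 99.2% of genes. This rank was not corrected for length, and the median 3′ UTR of those genes was 850 bases. Per kilobase, Socs4 had 3.28 copies, Cish 2.76, Socs3 2.71, Socs5 1.54, Socs6 1.44 and Socs7 0.96, against a gene median of 1.17. Socs7 had 5 copies, Socs3 and Socs5 had 4 each, Cish had 3 and Socs6 had 1. Socs1 had none in 1990 bases, and Socs2 none in the 37 bases of the model used, Socs2-202.

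Socs1 mRNA is a known target of miR-155, a microRNA that Foxp3 induces in regulatory T cells, and the site is shown here. Whether the site bears on the level of Socs1 in these cells was not tested. The mature sequence (RefSeq, seed in capitals) and the bases of the Socs1 3′ UTR around its match (match to the seed in capitals, chr16:10784206-10784228, minus strand) read as follows.
mmu-miR-155-5p: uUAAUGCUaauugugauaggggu
Socs1 3′ UTR: ctgccgctgtgccgcAGCATTAa
The match begins at base 20 of the 3′ UTR of Socs1-201. Of the 8 transcript models searched, that of Socs1 held AGCATTA, the match to the seed, and 7.50% of detected genes had it, so 1 in 8 is near the background. Socs2 was searched over only the 37 bases of Socs2-202, and the 3′ UTR of Socs2-201 was not searched. The host gene Mir155hg had 7.93 and 8.80 TPM, a mean of 8.37 ± 0.615 TPM, and mature microRNAs were not measured.

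The libraries were compared next, which asks how far the level of each member holds in a repeat library. Scaled counts of 4 members were higher in technical replicate 2 beyond counting error and those of none were lower: 4 of 8 were called higher (exact binomial test on rounded expected counts, Benjamini-Hochberg over all 16553 genes tested), where 21.4% of all tested genes were called higher, 12.7% lower and 34.1% in either direction. Among the 11161 genes with at least 100 counts over both libraries, which include all 8 members, 5346 were called, 3337 of them higher. The same 4 of 8 members were called there, which is near that share in either direction. The shares over all genes given beside the gene lists below likewise include genes with few counts. The median log2 ratio, technical replicate 2 over 1, was 0.40 over the members and 0.02 over all genes. This test compares the reads of these libraries and has no replicate check. The part of the erythroid RNA, which was also higher in technical replicate 2, was not tested. With edgeR's exactTest and a dispersion measured on the 9901 genes whose counts averaged 100 or more, which stands for a coefficient of variation of 20.5% between the libraries, 0 of 8 members were called, 2 had an unadjusted p under 0.05 and 0.689% of all genes were called, 0.35% higher and 0.338% lower.

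By scaled counts, Socs1 and Socs3 differed most. Socs1 had 274 and 565 counts, a log2 ratio of 1.28 ± 0.11 (counting SE, adjusted p = 3.79e-34, exact binomial test), which was higher than in 97.0% of tested genes. Socs3 had 1385 and 2653 counts, a log2 ratio of 1.17 ± 0.05 (adjusted p = 4.38e-138, exact binomial test), higher than in 96.1% of genes. The deposited credibility bounds did not overlap between the libraries for these genes, nor for Socs2 and Socs4, which makes 4 of 8 members. The share of all genes with bounds apart was not computed. With the measured dispersion the adjusted p was 0.23 for Socs1 and 0.296 for Socs3 (edgeR's exactTest), so that neither difference passed the test against the general spread between the libraries. The older gene table, counted on GENCODE M4, gave log2 ratios of 1.43 from 104 and 260 counts for Socs1 and 0.99 from 301 and 555 counts for Socs3. Of the 8 members, 3 were called higher and 0 lower there, where 26.6% of 11507 genes were called, 19.0% higher and 7.53% lower (exact binomial test).

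Socs2 and Socs4 were called with smaller differences. Socs2 had a log2 ratio of 0.47 ± 0.05 (adjusted p = 1.30e-17, exact binomial test), and in the older table, from 140 and 157 counts, the ratio was 0.28 and was not called (adjusted p = 0.26, exact binomial test). Socs4 had a log2 ratio of 0.59 ± 0.14 (adjusted p = 8.84e-05, exact binomial test) and 0.93 in the older table. With the measured dispersion the adjusted p of each was 1 (edgeR's exactTest).

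Cish, Socs5, Socs6 and Socs7 were not called. The log2 ratio of Cish was 0.04 ± 0.02, with a 95% counting interval from −0.0073 to 0.089, the narrowest of the family. Its sign depended on the scaling: it was −0.023 with total counts and −0.042 with the trend on GC content removed. Socs6 had a ratio of 0.10 ± 0.08 and Socs5 of 0.06 ± 0.15. Socs7 had 0.34 ± 0.22, with an interval from −0.099 to 0.77, so that at 81 and 87 counts a difference of this size was not detectable.

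**Figure D4:**
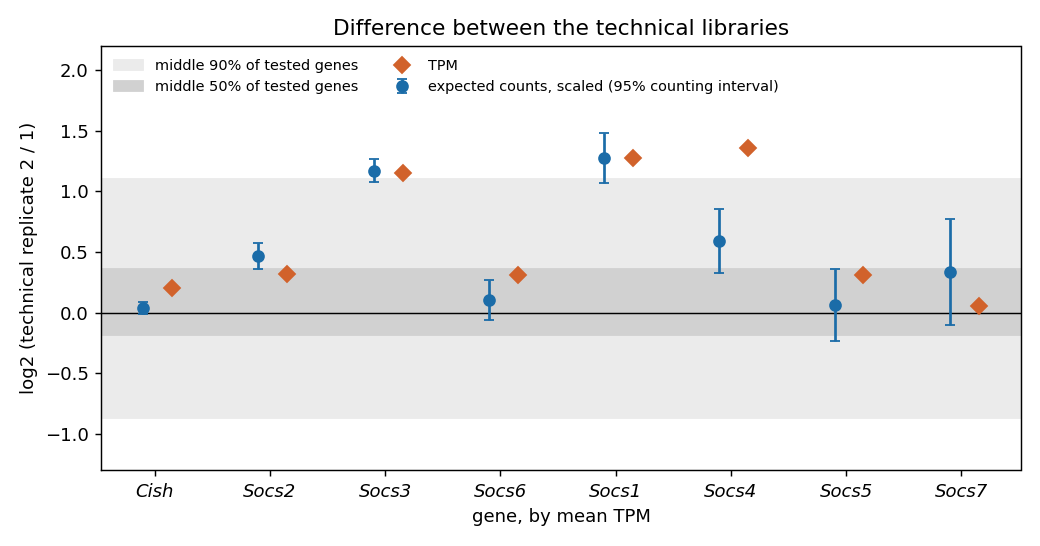
Log2 ratio of technical replicate 2 over technical replicate 1 for each member, from scaled expected counts (blue circles, with 95% counting intervals) and from TPM (orange diamonds), over bands that hold the middle 50% and the middle 90% of 16553 tested genes. Socs1 at 1.28 and Socs3 at 1.17 lie above the wider band, which ends at 1.10, and for Socs4 the TPM ratio of 1.36 lies well above the count ratio of 0.59.

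GC content moved with the library difference over all genes. The median log2 ratio was −0.18 in the 991 genes with the lowest GC content of their transcripts and 0.20 in the 990 with the highest, out of 10 such bins, among genes with at least 200 counts. Socs3 at 58.8% and Socs1 at 58.6% GC lie in the highest bin, and Socs4 at 38.8% lies in the lowest. With this trend removed the log2 ratios were 0.96 for Socs3, 1.08 for Socs1 and 0.81 for Socs4, and the same 4 members were called higher (exact binomial test), where 33.8% of all genes were called, 19.0% higher and 14.8% lower. The trend itself stood at 0.20 for Socs1, 0.21 for Socs3 and −0.22 for Socs4, so that removing it made the first pair of differences smaller and that of Socs4 larger. The part of GC content in the differences was not tested beyond this.

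**Figure D5:**
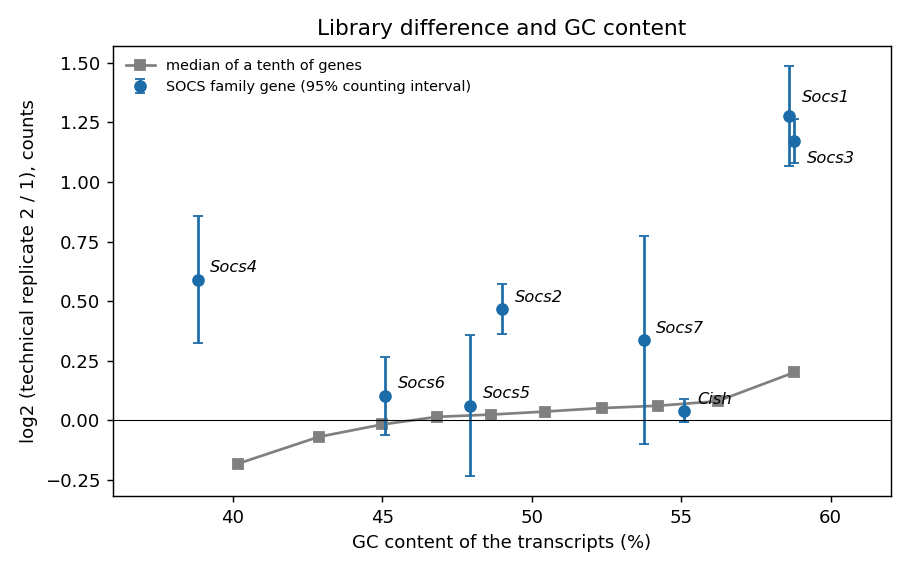
Log2 ratio of scaled counts, technical replicate 2 over 1, against the GC content of the transcripts in percent, for the 8 members (blue, with 95% counting intervals) and as the median of each of 10 bins of genes with at least 200 counts (grey squares). Socs1 and Socs3 lie at 58.6% and 58.8% GC, above the grey value of 0.20 there, and Socs4 lies at 38.8%, above the grey value of −0.18.

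Upstream of the family, all 4 JAK kinases were detected, as were the STAT factors named here. Jak1 had 259.8 and 498 TPM, Jak3, the partner of the common gamma chain, 70.0 and 139 TPM, Tyk2 77.4 and 86.5 TPM and Jak2 7.77 and 6.75 TPM. Of these kinases 3 were called higher in technical replicate 2 and 0 lower with TMM, beside 21.4% higher and 12.7% lower over all tested genes, while Jak2 was called lower with either other scaling. Stat6, which relays interleukin-4 signals, had 232.6 and 233.8 TPM, Stat3 178 and 244 TPM, Stat4 162 and 154 TPM and Stat2 76.7 and 94.6 TPM. The STAT5 genes had 84.8 and 90.1 TPM for Stat5a and 99.2 and 155 TPM for Stat5b. Of 24 cytokine receptor genes 19 were detected, led by Il2rg at 1339.6, Il2rb at 955, Ifngr1 at 359 and Il27ra at 336 TPM (means). Of 22 tested, 14 were called higher and 4 lower with TMM, beside the same 21.4% and 12.7% over all genes. With total counts 11 were called higher and 6 lower, where 6346 of 16553 genes were called, 3050 of them higher.

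The genes of the ubiquitin ligase that the SOCS box recruits, with its partners, made a list of 13, and each was detected, with the elongin genes Elob at 601 and 578 TPM and Eloc at 151 and 139 TPM, the ubiquitin-like modifier Nedd8 at 399 and 378 TPM and the RING protein gene Rbx1 at 308 and 291.5 TPM. Of the 13, 2 were called higher and 6 lower with TMM, where 21.4% of all tested genes were called higher and 12.7% lower. With total counts 2 were called higher and 9 lower, and there 48.1% of all calls over all genes were higher. Cul5, the cullin of this ligase, was not among the 4 most abundant and is named for its role: it had 19.6 and 21.6 TPM, of the same order as Socs6. Rnf7, also a RING protein gene and also below the 4 most abundant, had 90.35 and 85.93 TPM. Which RING protein gene goes with Cul5 was not tested here. Of 26 other genes whose products carry a SOCS box, 13 were detected, led by Wsb1 at 105 TPM, Asb6 at 55.9 TPM, Spsb3 at 51.1 TPM and Asb3 at 44.5 TPM (means), and 3 were called higher and 3 lower of 14 tested, beside the same shares over all genes. By mean TPM, Cish was thus above each of these 26 genes.

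Inhibitors of the pathway from outside the family were present as well. This list of 13 was detected whole, with a median of 100.2 TPM, led by the phosphatase genes Ptprc at 1215 and Ptpn6 at 299 TPM, Ptpn1 at 133 TPM and the ubiquitin ligase gene Cblb at 116 TPM, and 5 were called higher and 3 lower, beside 21.4% and 12.7% of all tested genes. Of 14 genes known as STAT5 targets outside the family all were detected, led by Ccnd2 at 1164, Il2ra at 320.1, Ccnd3 at 235 and Myc at 178 TPM. They had 5 higher and 2 lower calls with TMM, beside the same 21.4% and 12.7% over all genes. With total counts they had 3 higher and 4 lower, where 48.1% of all calls over all genes were higher. Of 14 receptors and adaptors that SOCS proteins restrain mainly outside lymphocytes, 3 were detected, Insr at 22.6, Igf1r at 7.55 and Irs2 at 2.47 TPM. With TMM 0 of 7 tested were called (exact binomial test), where 34.1% of all tested genes were called in either direction. Under the other scalings 0 were called as well.

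The older gene table gave another view of how many reads fell on each member. For genes with at least 50 older counts, the newer table held a median of 2.08 times as many counts in technical replicate 1, and 5.18 times at the upper decile. Cish had 7438.57 newer and 1276 older counts, a ratio of 5.83, and Socs2 a ratio of 9.83, while Socs1 at 2.63 and Socs4 at 2.58 were close to the median. The sources used here do not name the tool behind the older counts, and the order of the members per length was not taken from it.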

How the data were processed

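Polyadenylated RNA of regulatory T cells was measured in 2 technical libraries of 1 biological replicate, so SDs cover only the spread between these libraries, which is technical. The p-values of the exact binomial test cover counting error only. Those of edgeR's exactTest use a dispersion measured between the same libraries. Per the file headers, the authors deposited gene and transcript tables with expected counts, TPM, FPKM, and the share of each transcript in its gene in percent. The same deposited tables hold posterior mean TPM with credibility bounds, treated as a signal. An older deposited table holds whole counts per gene. The build is mm10 per the labels, and the sources used here do not give the quantifier or its strand setting.

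Gene names came from GENCODE M21. Rows naming no gene held 0.307% and 0.242% of the counts and were left out. Expected counts were rounded, scaled by TMM (edgeR 4.0.16, R 4.3.3), and compared by a two-sided exact binomial test (scipy 1.17.1, Python 3.11.15) with Benjamini-Hochberg adjustment over 16553 genes with at least 10 counts over both libraries, called at an adjusted p under 0.05. A count of 0.5 was added before each log2 ratio. This test was used because edgeR's quasi-likelihood test leaves no residual degrees of freedom here. The code was tested on simulated data. Counting intervals are at 95%, the detection floor is 3 counts, and both cover counting error only. Alternatives were DESeq2 1.42.0 size factors, total counts, other count minimums, edgeR's exactTest with a measured dispersion of 0.0421 from 9901 genes, the older table, and a GC trend removed by lowess (span 0.3, statsmodels 0.14.6).

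The members and gene lists were chosen with earlier results of these data known. The text names all members, the JAK and STAT genes, of which part is not reported here, and at most the 4 most abundant genes of each other list. Cul5, Rnf7, Gm17041, Gm17040 and Mir155hg are named in addition and were chosen after their values were seen. Promoters and the microRNA came from RefSeq tables (GRCm38.p6), and 3′ UTRs from the GENCODE M21 models.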

Additional observations from a re-analysis of the deposited data

How the results depend on the processing

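Over the 8 members and 7 alternatives to the test of the library ratio, 47 of the ratios kept their direction and their side of the threshold, 5 lost the call and 4 changed sign. Calls were lost for Socs1, Socs2, Socs3 and Socs4 with edgeR's exactTest and the measured dispersion, where 0 members and 114 genes in all were called in place of 4 and 5640, and for Socs2 in the older table, where 3058 of 11507 genes were called. The wider spread of that test, and the fewer counts of the older table, are part of their construction. The sign changed for Cish with total counts (−0.023) and with the GC trend removed (−0.042), and for Socs5 with total counts (−0.0015) and in the older table (−0.023), none of them called, and the cause was not tested. Higher calls made up 62.7% of all calls under TMM, 54.4% under DESeq2 size factors, 48.1% under total counts and 71.6% in the older table, while all members called were higher in each of these. Over the pathway lists it was 67.3%, 57.1% and 51.7% with the first 3 of these scalings. With a threshold of 5 TPM, 5 members were detected in place of 8. The summed level was 260.3 in FPKM, which is another unit, and ran from 338.4 to 455.3 TPM when either library was left out. Leaving out either library left 8 members detected and 5 with a transcript that took at least 50% of the gene. For Socs4 this transcript changed, from Socs4-201 at 75.3% in technical replicate 1 to Socs4-202 at 58.8% in technical replicate 2. No paired analysis was possible because the libraries belong to a single group. A library ratio cannot be had with a library left out. Depth limits Socs5 and Socs7, at 174 and 81 counts in their lower library.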
